A study of Arabidopsis thaliana with 4 samples.

Results

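The most connected chromatin hubs of wild-type *Arabidopsis* shoots were followed into the *myc2* mutant. A node gene here is a gene that owns the anchor of an H3K4me3-associated loop, and its connecting genes are the distinct other genes that loops join to it. Each anchor was given to the protein-coding gene whose region, 1 kb upstream of the transcription start site (TSS) to the gene's end, covered most of it and at least 50% of it. Genes with 13 or more connecting genes in Col-0 were kept, which gave 140 members among 14708 node genes with a connecting gene in Col-0, and 14978 in either list. The members are a subset of 7143 Col-0 hubs, which have at least 5 connecting genes. Because they were chosen by their Col-0 number, that number and every change from it are descriptions of this choice and carry no test. Just outside the threshold, 116 genes had 12 connecting genes in Col-0, with a median of 10 in *myc2*, and just inside it 63 genes had 13, with a median of 11 in *myc2*.

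The chromatin came from the aerial part of 2-week-old seedlings of *myc2*, a mutant of the bHLH transcription factor gene MYC2 whose allele the labels do not name, and of wild-type Col-0. Both genotypes grew at 22 °C under 16 h of light and 8 h of darkness, and both were crosslinked with ethylene glycol bis(succinimidylsuccinate) (EGS) at 1.5 mM for 30 min and with formaldehyde at 1% for 10 min. Each genotype had 2 biological replicates, which were combined before loops were called, so 1 loop list stands for each genotype and neither replicate spread nor a test between genotypes can be given. The *myc2* list holds 32312 loops, 297390 paired-end tags (PETs, the sequenced junctions between DNA ends brought together) and no loop under 5 PETs, against 36723 loops, 745505 PETs and no loop under 10 PETs in Col-0. Depth, the list's minimum and genotype cannot be told apart, and intervals given here cover counting error only. In whole shoots, fewer cells carrying an interaction and a weaker interaction per cell cannot be told apart either. At the MYC2 gene itself the anchor held 1423 H3K4me3 tags in *myc2* and 3562 tags in Col-0, a ratio of 0.399 (95% interval 0.375 to 0.425), but this anchor is also covered by AT1G32630. Of 18 light-harvesting genes, which green shoots use, 16 carried an anchor.

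H3K4me3 marks the start of transcribed genes, and in the compact *Arabidopsis* genome such starts lie close together along the chromosome arms. ChIA-PET recovers pairs of marked regions that were near each other in the nucleus, and a gene joined to many others is seen as the centre of a chromatin hub. MYC2 is a master regulator of jasmonate responses and recognises G-box-like sequences.

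The members that are described loop by loop are the 4 with the most connecting genes in Col-0 (AT4G38550, NdhN, UGT71C4 and OPCL1) and the 3 with the lowest *myc2* minus Col-0 difference (SIRANBP, CLPS3 and AT4G38670, the last being the one with most in Col-0 among 4 of equal difference). The 300 bases upstream of their TSS are given, read 5′ to 3′ on the gene's strand from the RefSeq genome TAIR10.1. This window is set by the TSS and not by the anchor, and the anchors of UGT71C4, OPCL1 and SIRANBP cover only part of it. Capitals mark matches on either strand to the G-box CACGTG, the telo box AAACCCTA and the site II elements TGGGCC and TGGGCT.
AT4G38550, chr4:18025335-18025634, plus strand: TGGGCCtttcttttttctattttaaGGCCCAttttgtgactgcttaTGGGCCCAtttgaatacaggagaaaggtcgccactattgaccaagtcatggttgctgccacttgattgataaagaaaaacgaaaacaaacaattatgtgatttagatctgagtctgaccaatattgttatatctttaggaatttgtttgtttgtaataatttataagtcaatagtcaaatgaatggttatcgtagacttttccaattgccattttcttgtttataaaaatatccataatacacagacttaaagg
NdhN, chr5:23562002-23562301, minus strand: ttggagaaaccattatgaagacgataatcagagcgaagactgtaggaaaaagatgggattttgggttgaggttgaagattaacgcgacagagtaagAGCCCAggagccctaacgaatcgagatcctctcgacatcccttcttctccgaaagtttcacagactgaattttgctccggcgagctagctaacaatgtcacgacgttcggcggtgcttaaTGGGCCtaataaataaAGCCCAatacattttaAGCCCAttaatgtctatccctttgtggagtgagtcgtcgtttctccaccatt
UGT71C4, chr1:2225459-2225758, plus strand: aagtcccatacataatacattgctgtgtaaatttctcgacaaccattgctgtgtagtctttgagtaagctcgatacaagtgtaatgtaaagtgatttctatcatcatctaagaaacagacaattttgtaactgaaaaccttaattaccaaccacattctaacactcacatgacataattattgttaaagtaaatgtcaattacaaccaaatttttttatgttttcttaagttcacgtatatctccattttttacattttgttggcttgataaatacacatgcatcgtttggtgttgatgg
OPCL1, chr1:7106122-7106421, minus strand: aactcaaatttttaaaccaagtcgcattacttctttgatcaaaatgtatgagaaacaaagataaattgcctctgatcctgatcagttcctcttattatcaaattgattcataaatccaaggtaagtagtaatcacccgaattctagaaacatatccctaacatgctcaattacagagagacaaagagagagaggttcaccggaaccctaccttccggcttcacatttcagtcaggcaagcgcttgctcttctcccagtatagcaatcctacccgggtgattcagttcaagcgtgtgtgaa
SIRANBP, chr1:2193837-2194136, minus strand: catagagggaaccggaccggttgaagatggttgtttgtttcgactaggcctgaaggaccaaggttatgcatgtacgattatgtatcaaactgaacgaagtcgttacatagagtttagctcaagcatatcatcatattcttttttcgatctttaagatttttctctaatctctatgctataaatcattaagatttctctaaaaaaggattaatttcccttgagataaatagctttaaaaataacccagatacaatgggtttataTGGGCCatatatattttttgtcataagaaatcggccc
CLPS3, chr3:1273005-1273304, minus strand: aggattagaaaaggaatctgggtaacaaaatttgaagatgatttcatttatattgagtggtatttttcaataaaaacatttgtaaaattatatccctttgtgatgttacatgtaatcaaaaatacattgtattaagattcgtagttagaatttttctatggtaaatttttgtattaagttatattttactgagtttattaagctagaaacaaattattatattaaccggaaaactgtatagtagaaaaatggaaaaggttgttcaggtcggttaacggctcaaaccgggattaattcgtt
AT4G38670, chr4:18071531-18071830, minus strand: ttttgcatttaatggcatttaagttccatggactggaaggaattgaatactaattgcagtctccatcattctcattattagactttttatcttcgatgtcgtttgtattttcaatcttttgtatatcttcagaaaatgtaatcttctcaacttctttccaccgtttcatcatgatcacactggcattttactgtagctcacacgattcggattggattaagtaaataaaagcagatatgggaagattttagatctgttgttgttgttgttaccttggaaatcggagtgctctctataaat

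None of these 7 stretches held a G-box or a telo box. AT4G38550 had 4 site II matches, of which 2 overlap in a palindrome, NdhN had 4, and SIRANBP had 1, whereas UGT71C4, OPCL1, CLPS3 and AT4G38670 had none. Over the whole set, 10 of 140 members (7.14%) had a G-box in this window, against 7.09% of 27443 protein-coding genes. A telo box was found in 11 members (7.86%), against 5.21% of all genes. A site II element was found in 48 members (34.3%), against 20.8% of all genes. All genes here include those without an H3K4me3 anchor. The shares over node genes or other hubs were not counted, so these differences cannot be given to the members in particular. Site II elements and telo boxes are known from promoters of ribosomal protein and cell cycle genes in plants. The windows of NdhN, UGT71C4, SIRANBP, CLPS3 and AT4G38670 overlap a neighbouring gene (ABCB25, UGT71C5, MAPKKK13, ANX1 and GRP2), so these letters are not their promoter alone. These matches are counts of letters and not sites of binding.

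The members joined a median of 11 genes in *myc2* and 14 genes in Col-0, with a range of 7 to 23 in *myc2* and 13 to 22 in Col-0. Fewer connecting genes in *myc2* were listed for 108 members, an equal number for 13 and more for 19. Among the 638 hubs of 10 to 12 connecting genes in Col-0, 460 had fewer and 89 had more. Among all Col-0 hubs, 62.7% had fewer and 17.9% had more. The median change, *myc2* minus Col-0, was -2 genes over the members, -2 over the 638 hubs of 10 to 12 connecting genes and -1 over all Col-0 hubs. Of 1985 pairs of a member and a connecting gene in Col-0, 1439 were also joined in *myc2*, which is 72.5% (95% Wilson interval 70.5 to 74.4). The same share was 71.6% (70.5 to 72.6) for the hubs of 10 to 12 and 70.1% (69.7 to 70.5) for all Col-0 hubs. No member kept every one of its Col-0 connecting genes, and 112 members had at least 1 connecting gene in *myc2* that Col-0 lacked. Neither count was made over the other hubs, whose kept shares were close to that of the members. The counts therefore cannot be taken as particular to the members.

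Following the hub classes of the study's methods, a hub is partially disassembled when its net number of connecting genes is lower in *myc2* by at least 3 and by at least a 0.3 share of the Col-0 number, and entirely disassembled from a 0.7 share. By these formulas 25 members (17.9%, Wilson interval 12.4 to 25.03) were partially disassembled, none entirely, and 115 were stable, with none newly formed or increased (a net number higher by at least 3 and a 0.3 share, met by 1.58% of all Col-0 hubs), whereas 16.8% of all Col-0 hubs were disassembled in part or entirely. Among hubs of 10 to 12 the share was 26.3% (23.1 to 29.9), though the median change was -2 there and in the members. The fall that the formulas ask for moves with hub size, so these shares are not like for like. With *myc2* as the list that chooses, 80 genes had 13 or more connecting genes, 54 of them members and 26 not. Their median change was 1, with 22 lower in *myc2*, 13 equal and 45 higher, so the sign of the median follows the list used for the choice.

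**Figure D1:**
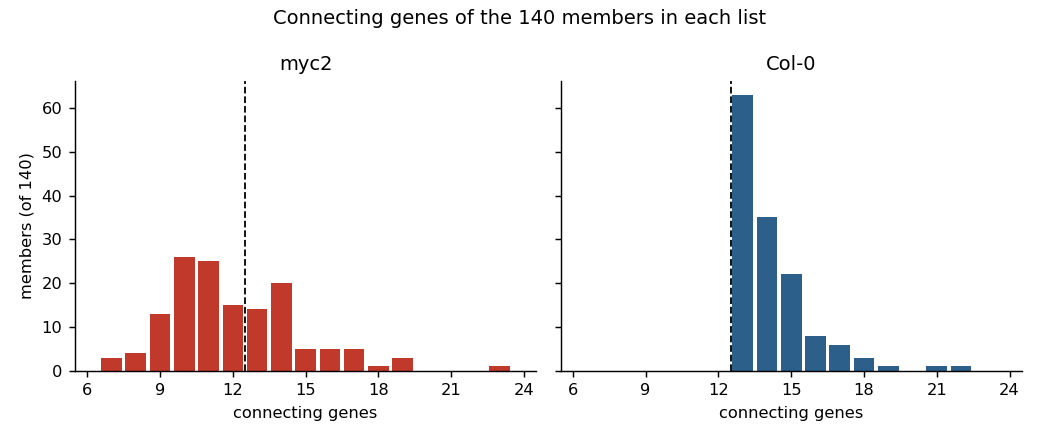
Number of the 140 members (vertical axis) with each number of connecting genes (horizontal axis) in *myc2* (left) and Col-0 (right). The dashed line marks the threshold of 13 that the rule set in Col-0, and 54 members lie at or above it in *myc2*.

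At the top of the Col-0 ranking stood AT4G38550, a phospholipase-like PEARLI 4 family gene on chromosome 4 (18025635 to 18028911 of TAIR10.1, plus strand), with 19 connecting genes in *myc2* and 22 in Col-0. NdhN, a subunit of the chloroplast NADH dehydrogenase-like complex that carries cyclic electron flow around photosystem I, had 23 in *myc2* and 21 in Col-0. NdhN thus had the highest number of any member in *myc2*, but its anchor is also covered by ABCB25, so its loops cannot be given to either gene alone. UGT71C4, a UDP-dependent glycosyltransferase, had 16 in *myc2* and 19 in Col-0. OPCL1, the CoA ligase that activates a jasmonate precursor for β-oxidation, had 14 in *myc2* and 18 in Col-0. The glutaredoxin family gene AT3G57070 also had 14 in *myc2* and 18 in Col-0, and the hydrolase family gene AT5G02970 had 18 in both lists.

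With 17 connecting genes in Col-0 followed 6 members. Of these AT1G15830 had 17 in *myc2*, 13 of them shared with Col-0, AT5G19940 of the plastid fibrillin family and ULI3 had 15, AT5G58330 of the malate dehydrogenase family had 14, the protein kinase gene AT3G51990 had 12 and AT4G38670 had 11. The 8 members with 16 in Col-0 spread more widely. Among them the diiron cyclase gene CRD1 of chlorophyll synthesis had 17 in *myc2*, and AT1G51570 and AT3G07470 each had 19. The carbonic anhydrase gene CA2 and the ribosomal protein gene RPL4 had 14, AT4G15545 and RAD23C, a shuttle of ubiquitinated proteins, had 13, and PKS2, a substrate of phytochrome kinase activity, had 11. These 20 members are shown in the plot of connecting genes per member.

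**Figure D2:**
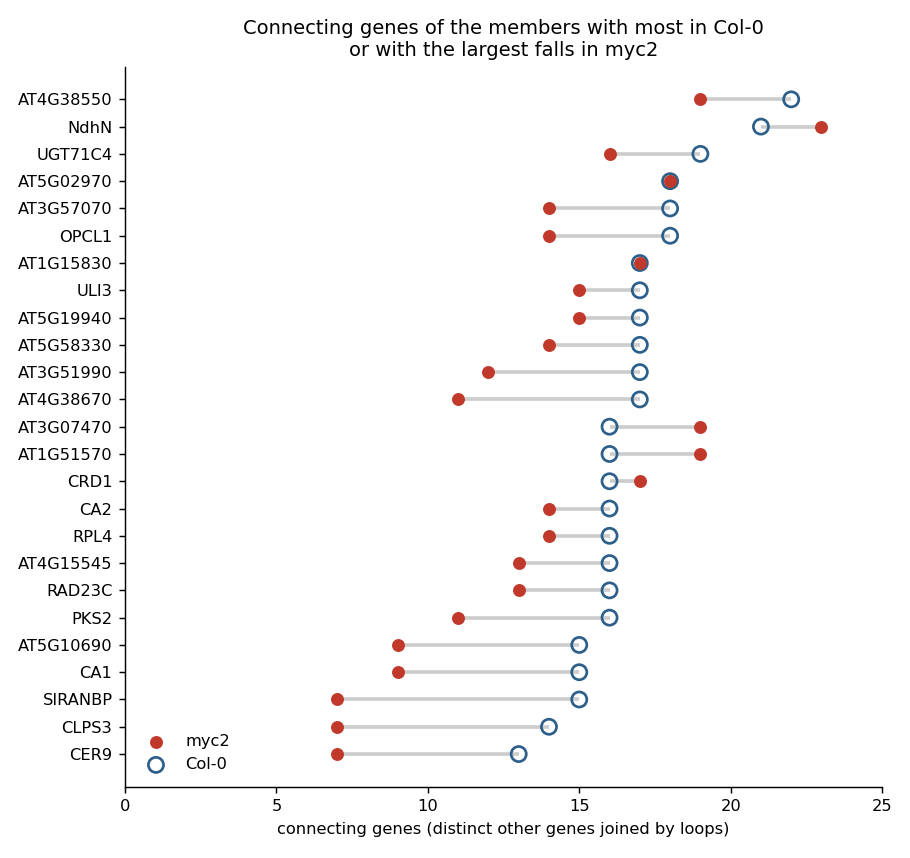
Connecting genes (horizontal axis) of the 20 members with 16 or more in Col-0 and of the 6 members with at least 6 fewer in *myc2*, 25 genes in all since AT4G38670 is in both. Filled red points are *myc2* and open blue circles Col-0, and the longest grey line, at SIRANBP, spans 7 in *myc2* and 15 in Col-0.

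NdhN lies on chromosome 5 (23560568 to 23562001, minus strand). Its anchor, from 23558688 to 23563093, held 6147 tags in *myc2* and 8246 tags in Col-0. Its loops to other genes summed to 315 PETs in *myc2* (exact Poisson interval 281 to 352) and 791 PETs in Col-0 (737 to 848). The strongest partner was TTL, a transthyretin-like gene 4.90 kb away, with 55 PETs in *myc2* and 151 PETs in Col-0. RPT3, a proteasome ATPase subunit, had 29 PETs in *myc2* and 92 PETs in Col-0. PHOT2, the blue-light photoreceptor phototropin 2, stood 36.4 kb away and had 29 PETs in *myc2* and 84 PETs in Col-0. Of the 21 Col-0 connecting genes 17 were shared, and the 4 that *myc2* lacked were TIL, WNK4, SIP1 and EXO70B1, with 10 to 18 PETs in Col-0. The 6 gained ones carried 5 or 6 PETs each, below the lowest PET number that the Col-0 list can show. Of these, 5 lay together 71.9 to 99.9 kb from NdhN on the side of TTL, among them UBP23 and FIP1[V].

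AT4G38550 shared 18 connecting genes between the lists. Its 3 strongest partners were PIS2 with 27 PETs in *myc2* and 73 PETs in Col-0, AT4G38495 with 28 in *myc2* and 72 in Col-0, and the protein phosphatase gene AT4G38520 with 24 in *myc2* and 71 in Col-0. The 4 that *myc2* lacked were EXLA2, sks9, AT4G38660 and AT4G38670, with 10 to 18 PETs in Col-0. The gene gained in *myc2*, AT4G38690 at 5 PETs, stood between AT4G38670 and AT4G38710, and the last of these was joined in both lists (9 PETs in *myc2*, 13 PETs in Col-0).

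UGT71C4 (chromosome 1, 2225759 to 2227608, plus strand) lies in tandem with UGT71C5, its relative, to which it was joined by 16 PETs in *myc2* and 42 PETs in Col-0. AT1G07280 had 42 PETs in *myc2* and 111 PETs in Col-0, and RPL4 had 42 in *myc2* and 90 in Col-0. Of its 6 connecting genes without a loop in *myc2*, 5 lay at lower coordinates, from STN1 to NDA1, and the other was HAI2, a protein phosphatase 2C of abscisic acid signalling, at 54.6 kb. AT1G07160 was the strongest of the 6, with 23 PETs in Col-0.

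OPCL1 (chromosome 1, 7103362 to 7106121, minus strand) was joined to no gene in *myc2* that Col-0 lacked. Its strongest partners in Col-0 were the neighbouring genes AT1G20490 and AT1G20480, the first with 26 PETs in *myc2* and 65 PETs in Col-0 and the second with 25 PETs in *myc2* and 52 PETs in Col-0. AT1G20540 had 28 PETs in *myc2* and 46 PETs in Col-0. The dehydrin genes COR47 and ERD10, known for their response to cold and dehydration, were joined to it in both lists, COR47 with 9 PETs in *myc2* and 11 PETs in Col-0 and ERD10 with 10 in *myc2* and 18 in Col-0. The 4 connecting genes that *myc2* lacked had 11 to 17 PETs in Col-0. Across its shared partners the PET ratio, *myc2* over Col-0, was 0.524 (0.434 to 0.63), against a range of 0.284 to 0.538 over the members and a median of 0.421.

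The largest difference was at SIRANBP, the RAN-binding protein gene known as RANBP1a (chromosome 1, 2191679 to 2193836, minus strand), with 7 connecting genes in *myc2* and 15 in Col-0. At higher coordinates it was joined in Col-0 to 8 genes, of which *myc2* kept AT1G07160 (16 PETs in *myc2*, 39 PETs in Col-0). The 7 others, from NDA1 at 11.3 kb to UGT71C4 at 33.9 kb, had 10 to 13 PETs each in Col-0. On the other side *myc2* kept 5 of 7, among them F2KP with 24 PETs in *myc2* and 47 PETs in Col-0 and STN1 with 26 in *myc2* and 45 in Col-0. Its H3K4me3 tags numbered 2209 in *myc2* and 2780 in Col-0, a ratio of 0.795 (0.751 to 0.841), near the median of 0.788 over the members.

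CLPS3, a homologue of an RNA cleavage and polyadenylation factor, had 7 connecting genes in *myc2* and 14 in Col-0, and its anchor is also covered by ANX1, a receptor-like kinase gene. It kept AT3G04650 with 22 PETs in *myc2* and 52 PETs in Col-0, TPR10 with 20 in *myc2* and 39 in Col-0, and WRKY39 with 18 in *myc2* and 35 in Col-0. Missing in *myc2* were 7 genes of 12 to 21 PETs in Col-0, among them SWP, a Mediator subunit gene, and FLK, a flowering regulator of the autonomous pathway. AT4G38670, of the thaumatin family, had 11 connecting genes in *myc2* and 17 in Col-0 and gained none. Its anchor is also covered by GRP2, a cold shock domain gene, so its loops cannot be given to either gene alone. It kept AT4G38710 with 25 PETs in *myc2* and 86 PETs in Col-0 and AT4G38660 with 28 in *myc2* and 65 in Col-0, and lost KAK, PRP4 and 4 others of 11 to 16 PETs in Col-0. CA1 and AT5G10690 each had 9 in *myc2* and 15 in Col-0, and CER9, an E3 ubiquitin ligase of cuticle formation, had 7 in *myc2* and 13 in Col-0. The lost connecting genes of the 3 hubs traced loop by loop thus stood at 10 to 21 PETs in Col-0.

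**Figure D3:**
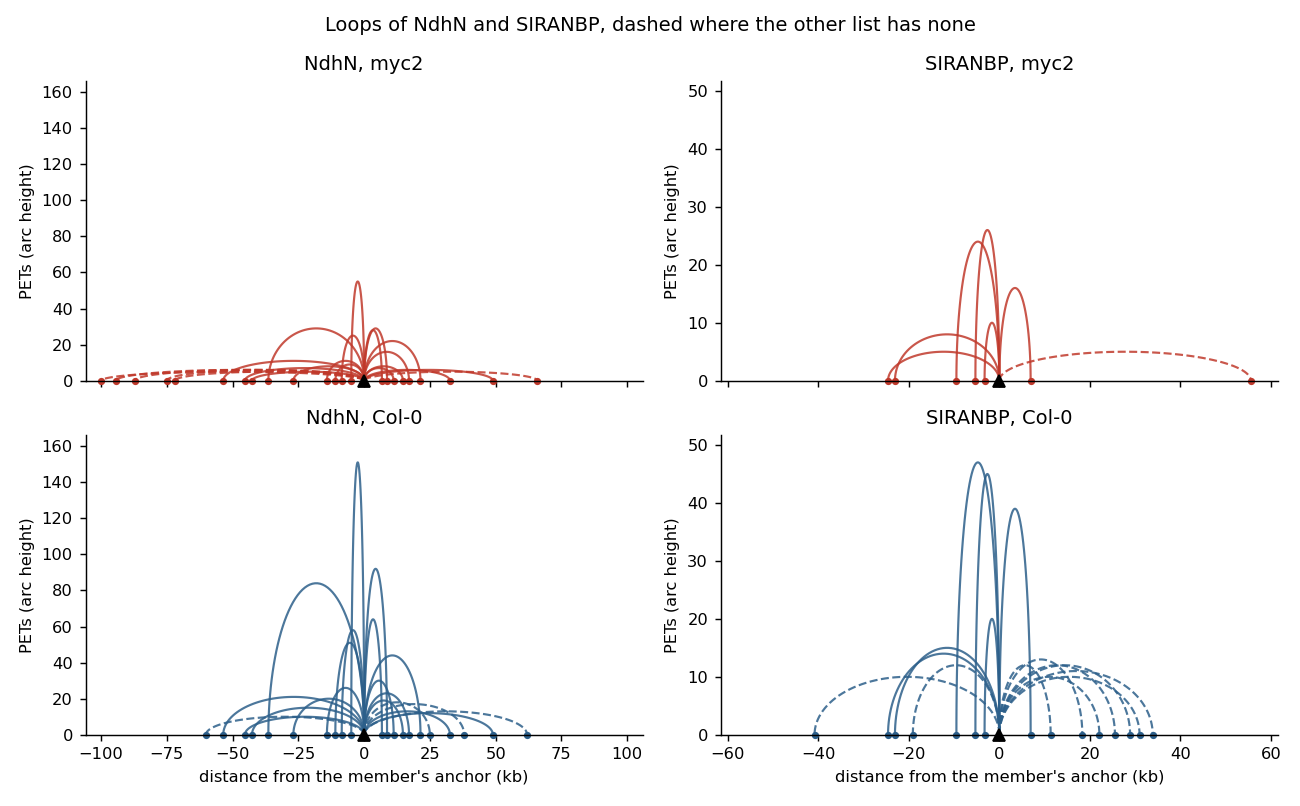
Loops of NdhN (left) and SIRANBP (right) in *myc2* (upper row, red) and Col-0 (lower row, blue). Each arc runs from the member (triangle at 0) to a connecting gene at its distance in kb (horizontal axis), its height is the PET count (vertical axis), and dashed arcs have no loop in the other list. The arcs of SIRANBP to the right number 8 in Col-0, of which 1 is solid.

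Among the 19 members with more connecting genes in *myc2*, AT4G17390 of the ribosomal protein L15e family stood first, with 17 in *myc2* and 13 in Col-0. AT1G51570 and AT3G07470 had 3 more each. NdhN, GUN5, ACR11, AT5G65860 and AT4G24380 had a net 2 more in *myc2*. GUN5, the magnesium chelatase subunit that commits protoporphyrin to chlorophyll and takes part in plastid signalling, had 15 in *myc2* and 13 in Col-0. The remaining 11 had a net 1 more, namely CRD1, RCA, AT3G08920, CYP81G1, BG_PPAP, WRKY33, CYP86A8, DRT102, AKR2, FPS1 and NF-YC4. WRKY33 is a regulator of defence against necrotrophic fungi, AKR2 a chaperone of chloroplast envelope proteins, and FPS1 a farnesyl diphosphate synthase.

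The medians of tags and anchor width were highest in these members. The 19 had a median of 4743 tags in *myc2* and 6350 tags in Col-0 and a median anchor width of 3.00 kb. The 25 disassembled ones had 3167 tags in *myc2* and 4173 tags in Col-0 and 2.05 kb. Tags and PETs come from the same libraries, and the groups were formed by their change, so these medians are a description. Of the disassembled members' Col-0 pairs, 41.5% had 10 to 14 PETs, against 27.5% for members with more connecting genes in *myc2* and 35.8% for the 83 other members with fewer. Pairs of 30 or more PETs made up 21.3% in the disassembled members and 35.1% in those with more. The median tag ratio was 0.785 in the disassembled members and 0.812 in those with more.

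By function the members were mixed. Words of the annotated product put 5 members (3.57%) in photosynthesis and chloroplast, against 1.04% of node genes, and 12 (8.57%) among protein kinases and phosphatases, against 7.53%. Transcription factors numbered 6 (4.29%, against 4.29%), and 94 members fell in none of the 10 classes. These words miss many plastid genes. They also put PKS2, the fructose-2,6-bisphosphatase gene F2KP and the N-acetyl-glutamate kinase gene NAGK among protein kinases and phosphatases, though none of these encodes one. AT3G08920 and AT4G27700 are in that class only through the name of the rhodanese/cell cycle control phosphatase superfamily. Several members that act in chloroplasts were picked out after their values were seen, and they moved in both directions. RCA, the activase of Rubisco, had 16 connecting genes in *myc2* and 15 in Col-0 and the most tags of any member, 7438 in *myc2* and 9142 in Col-0. CRD1 and GUN5, the chlorophyll synthesis genes above, had 1 and 2 more in *myc2*. PSBP-1 of the oxygen-evolving complex had 14 in *myc2* and 15 in Col-0, LHCA1 of the photosystem I antenna 12 in *myc2* and 13 in Col-0, and GLDP1 of photorespiration 13 in *myc2* and 14 in Col-0. The chloroplast RNA-binding gene CRB had 14 in both lists, and its relative CSP41A had 13 in *myc2* and 15 in Col-0. FBA1, a plastid aldolase, had 11 in *myc2* and 13 in Col-0, THM1, a plastid thioredoxin, 10 in *myc2* and 15 in Col-0, and the carbonic anhydrase gene CA1 9 in *myc2* and 15 in Col-0.

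The gene lists written for this study touched the members in 6 places. These are NdhN (1 of 13 chloroplast NDH complex genes with Col-0 loops, with its anchor shared with ABCB25), OPCL1 (1 of 13 of jasmonate biosynthesis), ICE1 (1 of 8 of cold response), UGT71C4 (1 of 4 UGT71C genes), SIRANBP (1 of 6 RAN genes) and LHCA1 (1 of 16 light-harvesting genes). No member was among 14 jasmonate signalling genes, whose median was 6 connecting genes in *myc2* and 6.5 in Col-0, or among 3 cold shock domain genes with Col-0 loops. GRP2, also in the cold shock list, was given no anchor by the rule, but its region covers the anchor of the member AT4G38670. ICE1, a bHLH inducer of the CBF cold response genes, had 9 in *myc2* and 14 in Col-0. Outside these lists RANGAP1, the GTPase-activating partner of RAN, was also a member, with 13 in both lists, and was picked out after its value was seen. TCP4, a regulator of leaf growth, had 9 in *myc2* and 14 in Col-0, and PUB9, a U-box gene, had 9 in *myc2* and 13 in Col-0. The other leading members of the classes were AT1G78200, a protein phosphatase 2C gene with 11 in *myc2* and 15 in Col-0, the tRNA methyltransferase gene TRM10 with 14 in *myc2* and 15 in Col-0, the isoprenylcysteine methyltransferase gene ATSTE14B with 13 in *myc2* and 15 in Col-0, AT5G19300 with 12 in *myc2* and 14 in Col-0, AT2G41080 with 12 in *myc2* and 13 in Col-0, ATRBP45C with 11 in *myc2* and 13 in Col-0 and AT1G02110 with 14 in both lists.

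The members' anchors were wide and rich in tags, measures that the rule did not use but that come from the same libraries. Their median width was 2.16 kb, against 1.60 kb in hubs of 10 to 12, 1.05 kb in all Col-0 hubs and 0.896 kb in all node genes. The median tag number was 3507.5 in *myc2* and 4454 in Col-0, against 2505 in *myc2* and 3213.5 in Col-0 for hubs of 10 to 12 and 1559.5 in *myc2* and 1986 in Col-0 for all Col-0 hubs. Of 107 node genes with 5000 or more tags in Col-0, 49 (45.8%) were members, whereas none of the 3616 genes under 1000 tags or of the 6892 with 1000 to 2000 tags was. Connecting genes and tags in Col-0 had a Spearman correlation of 0.487 over the 140 members and 0.669 over all 14708 node genes, with library and anchor width shared by both measures. Every member had fewer tags in *myc2* and fewer PETs, but the same counts were not made over other hubs. The tags of all anchors summed to 19450298 in *myc2* and 25075511 in Col-0, and the PET total was also lower in *myc2*. The median tag ratio was 0.788 over the members, against 0.798 in hubs of 10 to 12, 0.787 in all Col-0 hubs and 0.775 over 14505 anchors. Neither count can therefore be taken as particular to the members. The lowest tag ratio was that of MRD1, 1459 tags in *myc2* and 3226 tags in Col-0 (0.452, 0.425 to 0.481), and the highest that of AT4G12780, 4053 tags in *myc2* and 4298 tags in Col-0 (0.943, 0.903 to 0.985).

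**Figure D4:**
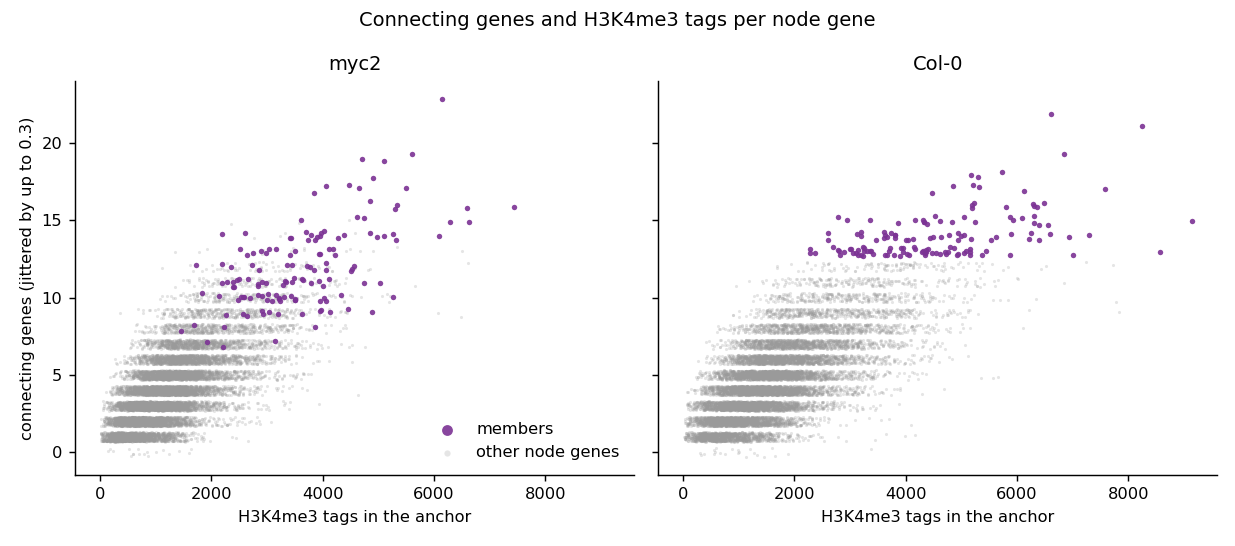
H3K4me3 tags in the anchor (horizontal axis) and connecting genes (vertical axis, points shifted at random by up to 0.3) of each node gene in *myc2* (left) and Col-0 (right). Members (purple) lie at 1459 tags or more in *myc2* and at 2274 tags or more in Col-0, and other node genes are grey.

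Wide anchors often held more than one gene. In 80 of 140 members (57.1%) at least 1 further gene region covered 50% of the anchor, against 40.4% of hubs of 10 to 12, 21.5% of all Col-0 hubs and 16.3% of node genes. The light-harvesting gene LHCB6 shares the anchor of AT1G15830, MSI1 that of TTL, HTB4 that of ULI3 and VAD1 that of AT1G02110, so the hub cannot be given to either gene alone in such places. The TSS of the assigned gene lay inside the anchor for 113 of 140 members. The same held for 445 of 638 hubs of 10 to 12, 3986 of 7143 Col-0 hubs and 7138 of 14708 node genes.

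Gene density around the members was described within 20 kb on each side. A median of 12 genes and 8 anchors lay in that window, against 11 genes and 7 anchors for all Col-0 hubs. Their loops covered a stretch of 83.4 kb in the median, with 26 other genes of which 17 carried an anchor, and 81.3% of the anchored ones were joined to the member, against 83.3% in all Col-0 hubs. The farthest connecting gene in Col-0 was 48.3 kb away in the median member and 106 kb away for CA2, the longest. Connecting genes lay on both sides of every member, with at least 4 on the smaller side, and 106 members had 6 or more on each. Of the 109 members that lost 3 or more connecting genes, 7 lost them on 1 side alone.

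Loops were weaker at greater gene distance beyond 3 genes, with a median in Col-0 of 36 PETs for adjacent pairs, 38 PETs for pairs 2 to 3 genes apart, 22 PETs for pairs 4 to 6 apart and 11 PETs for those 16 or more apart. The strongest partner in Col-0 was 2 genes away in the median member and within 5 genes in 132 of 140, and it took a median 18.4% of the member's PETs. It was joined in *myc2* in all 140 members, with a median of 26 PETs in *myc2* and 69 PETs in Col-0, and in 91 it was also the strongest partner in *myc2*. Neither count was made over other hubs. The strongest partners had 22 to 151 PETs in Col-0, and of all Col-0 loops of 30 or more PETs only 0.913% were missing from *myc2*. These counts therefore cannot be taken as particular to the members. Of adjacent pairs *myc2* kept 95.3% (90.2 to 97.8), of pairs 2 to 3 genes apart 96.1% (93.6 to 97.6), of pairs 4 to 6 genes apart 82.8% (79.5 to 85.7), of pairs 11 to 15 genes apart 42.7% (37.3 to 48.3) and of those 16 or more apart 30.9% (22.4 to 40.8). Hubs of 10 to 12 kept 89.8% of adjacent pairs and 23.4% of those 16 or more apart, and all Col-0 hubs kept 86.7% and 22.0%. Adjacent pairs had a median in Col-0 of 36 PETs in the members, 34 PETs in hubs of 10 to 12 and 27 PETs in all Col-0 hubs. At 16 or more genes apart the median was 11 PETs in each of these groups. The kept shares of adjacent pairs are thus not of pairs of like strength. Kept connecting genes were a median of 5 genes away and lost ones 10 genes away.

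At the level of single loops, 547 of the 1966 Col-0 loops at member anchors had no counterpart in *myc2*, 27.8% (25.9 to 29.8), against 32.2% of all Col-0 loops and 32.5% (32.0 to 33.0) of those at no member anchor. The loops at member anchors had a median of 18 PETs, against 16 PETs elsewhere, and a median span of 18.2 kb, against 11.03 kb elsewhere. By class of PETs the shares differed in either direction. Of loops with 10 or 11 PETs, 63.1% (57.9 to 68.0) at member anchors and 65.3% (64.1 to 66.4) elsewhere were missing from *myc2*. From 15 to 19 PETs the shares were 29.3% (24.9 to 34.2) at member anchors and 29.5% (28.5 to 30.5) elsewhere. From 12 to 14 PETs they were 54.4% (49.2 to 59.6) at member anchors and 49.3% (48.2 to 50.5) elsewhere. None of 532 loops of 30 or more PETs at member anchors was missing, which allows a share of up to 0.564% (3 counts), against 1.01% (0.769 to 1.31) elsewhere. Within classes of span the members' shares were lower in each class, from 6.35% (3.67 to 10.8) against 19.6% (18.5 to 20.7) under 5 kb to 67.1% (60.8 to 72.9) against 76.7% (73.2 to 79.8) at 40 kb or more. In the class of 5 to 10 kb the median loop had 39 PETs at member anchors and 20 PETs elsewhere. Over the 1419 shared loops the PETs summed to 18050 in *myc2* and 42792 in Col-0, a ratio of 0.422 (0.415 to 0.429), against 0.432 (0.43 to 0.434) elsewhere. The lower pooled ratio did not hold by class of PETs, where intervals overlapped in every class. The ratio at member anchors was 0.632 against 0.619 elsewhere at 10 or 11 PETs and 0.549 against 0.538 from 12 to 14. From 15 to 19 PETs it was 0.458 against 0.463, from 20 to 29 it was 0.413 against 0.409, and from 30 it was 0.399 against 0.391. A shared loop needs at least 5 PETs in *myc2*, which bounds the ratio from below, most in the classes of few PETs. The ratios of different classes therefore cannot be set against each other.

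**Figure D5:**
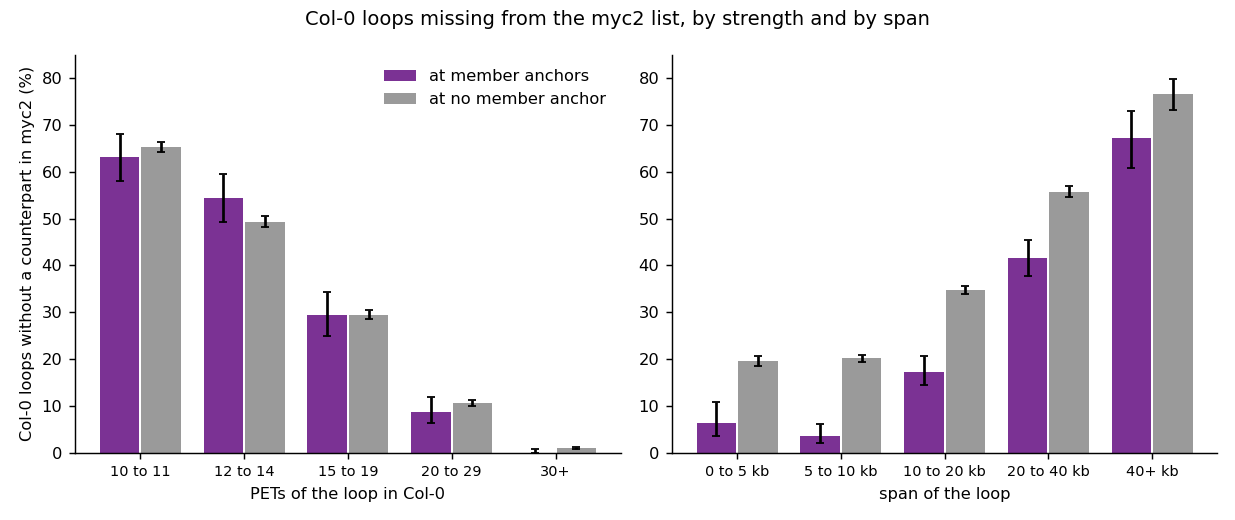
Percent of Col-0 loops without a counterpart in *myc2* (vertical axis) by the loop's PETs in Col-0 (left) and by its span (right), for loops at member anchors (purple) and at no member anchor (grey), with 95% Wilson intervals. The share is lower in classes of more PETs, with 0 of 532 at member anchors from 30 PETs, and is lower at member anchors in every class of span.

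In *myc2*, 246 of 1665 loops at member anchors (14.8%) had no counterpart in Col-0, against 23% of all *myc2* loops. They had a median of 5 PETs and at most 11, and 241 had fewer than 10, a number at which the Col-0 list shows no loop. Of these, 13 joined genes on different chromosomes, out of 256 such loops in the whole *myc2* list and none in Col-0. PKS2 was joined to RCA by 6 PETs and AT2G45720 to AT4G24380 by 5 PETs, and both genes of each pair are members. AT1G51570 had 9 PETs to AT2G37980, and AT5G65860 had 6 PETs to RGA1, a DELLA repressor of gibberellin responses. Loops within a single anchor region occurred at 9 members in Col-0, out of 18 in that list, and are not counted as connecting genes. GUN5 had 17 such PETs in *myc2* and 40 in Col-0, RCA 12 in *myc2* and 29 in Col-0, and NdhN 9 in *myc2* and 20 in Col-0.

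The members were found on all 5 chromosomes, with 31, 13, 33, 23 and 40 genes on chromosomes 1 to 5. Loops in Col-0 joined 69 of them to another member, in 26 neighbourhoods, and 71 stood alone. Member pairs joined by a loop numbered 51 in *myc2* and 63 in Col-0. The largest neighbourhood held EXO70B2, F2KP, SIRANBP, AT1G07200, UGT71C4 and RPL4 over 96.4 kb of chromosome 1. Its members were joined in 6 pairs in *myc2* and 10 pairs in Col-0, with 108 PETs in *myc2* and 248 PETs in Col-0 between them. EXO70B2 is a subunit of the exocyst and F2KP an enzyme of fructose-2,6-bisphosphate turnover. Around AT4G38550, a neighbourhood with GGR, AT4G38495, AT4G38670 and AT4G38710 had 5 joined pairs in *myc2* and 7 in Col-0, with 92 PETs in *myc2* and 269 PETs in Col-0. PHOT2, TTL, NdhN and AT5G58330 were joined in all 6 possible pairs in both lists, with 151 PETs in *myc2* and 368 PETs in Col-0. AT4G27660, AT4G27680, AT4G27700 and AT4G27720 lay within 14.5 kb and were joined in 4 pairs in *myc2* and 6 in Col-0. ATGRIP, AKRP, AT5G66120 and ARO2 had 5 pairs in *myc2* and 6 in Col-0.

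These numbers depend on the minimum PET count of each list. With at least 10 PETs asked in both lists, all 140 members had fewer connecting genes in *myc2* and all were disassembled by the formulas, whereas with at least 12 PETs asked in Col-0 the median change was 0 and 4 were disassembled.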

How the data were processed

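H3K4me3 ChIA-PET libraries of *myc2* and Col-0 shoots were used, 2 replicates per genotype combined by the authors into 1 loop list each. Per the study's methods, ChIA-PET Tool V3 trimmed linkers, placed the reads on TAIR10, discarded duplicate PETs and called loops between merged H3K4me3 ChIP-seq peaks at an FDR under 0.05 and from a minimum PET number chosen according to how deeply the library was sequenced. Its aligner is not given in the sources used here. Each row of the deposited files is 1 loop, with the PET count and the tag count of either anchor, both unscaled. Distances between anchors, p-values, FDR values and their −log10 form were also deposited, and of these the FDR served as a filter in 1 alternative.

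Of 15694 anchors, 97.9% were assigned to one of 27444 protein-coding genes of the RefSeq annotation of TAIR10.1, whose nuclear chromosomes hold every anchor. Loops within an anchor were left out of connecting genes. Loops were shared when both anchors were the same intervals, and no anchors overlap one another. Tag ratios used anchors of 300 or more Col-0 tags. Where a list lacks a loop, its PETs count as 0 there. Shares have Wilson intervals, PET sums exact Poisson intervals and ratios intervals from the exact binomial share, at 95%. With 1 list per genotype, no test was made. The functions were tested on simulated loops.

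The members, gene lists and classes were chosen with earlier results of these data known. Named genes were the members with 16 or more connecting genes in Col-0, those with a net number lower by 6 or more, or higher, in *myc2*, those in a gene list, those with the most tags, extreme tag ratios or the longest loop, up to 3 with the most connecting genes of each class, those of the largest neighbourhoods, and the partners of 7 members traced loop by loop. FBA1, GLDP1, THM1, RANGAP1 and NAGK, genes that share an anchor with a member, the partners of loops between chromosomes and AT2G45720 were named outside this rule after their values were seen. Other PET minimums, equal loop numbers, a stricter FDR, intrachromosomal loops, other gene assignments and other thresholds were tried. Python 3.11.15, numpy 2.4.6, pandas 2.3.3, scipy 1.17.1, networkx 3.6.1 and matplotlib 3.10.9 were used.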

Additional observations from a re-analysis of the deposited data

How the results depend on the processing

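No paired analysis was possible because the replicates were combined before the loop lists were made. The FDR under 0.001 and the restriction to intrachromosomal loops gave the same values, except that 26 members were disassembled on intrachromosomal loops. Asking 50% overlap of both anchors or at least 1000 tags could not change the loop shares, the PET ratio or the tag ratio, since no anchors overlap one another and the same 141 member anchors passed the minimums of 300 and 1000 tags. With at least 10 PETs in both lists the median change was -9, the kept share 37.9%, 140 members were disassembled, 62.7% of loops were missing and the PET ratio was 0.439. With at least 12 PETs in Col-0, 39 genes reached 13, the median change was 0, the kept share 80.0%, 4 members were disassembled, 20.3% of loops were missing and the median span was 15.5 kb. With equal loop numbers these were 71 genes, -1, 76.8%, 12, 23.4% and 16.7 kb. Giving an anchor to every gene covering 50% of it raised the number to 767 genes, all 140 members among them, with 149 disassembled, a span of 15.6 kb and 216 neighbourhoods. Giving it to every gene whose promoter it overlaps gave 1164 genes (138 members), 74.6% kept, 238 disassembled, 14.7 kb and 257 neighbourhoods. A threshold of 12 gave 256 genes, 52 disassembled, 17.2 kb and 150 neighbourhoods, and one of 14 gave 77, 16, 18.9 kb and 59. Chosen by *myc2*, 80 genes had a median change of 1, 81.2% kept, 0 disassembled, 19.4% of loops missing and a tag ratio of 0.806. These alternatives select fewer or more loops or genes by construction. Loops under 5 PETs in *myc2* and under 10 PETs in Col-0 are not in the lists and could not be compared.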
